A study of Sus scrofa with 2 samples.

Results

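SLC2A2, ABCC8, KCNJ11 and SLC30A8 were followed by symbol through the nuclei of the pig pancreas. The genes were chosen for their place in glucose sensing and in the ATP-sensitive potassium (KATP) channel. Earlier results of these data were known at that point, and the study had named the 4 genes from these libraries. All 4 were found among the 31908 genes of the count matrices, and each symbol belonged to 1 gene identifier. The pancreas of 1 wild-type (WT) and 1 PIGinH11 pig, both of the Bama breed, was measured by single-nucleus RNA sequencing, in which a barcode marks each nucleus and a unique molecular identifier (UMI) marks each captured RNA molecule. The PIGinH11 pig carries 3 human disease susceptibility genes at the H11 locus, GIPRdn, hIAPP and PNPLA3 I148M, under promoters that act in beta cells or in liver, and the transgenes themselves were not analysed here. Both pigs were 18 months old, and both received control diet until 6 months of age, followed by 12 months of a high-fat and high-sucrose diet (HFHSD). One piece of pancreas per pig gave 1 library per group, so genotype, animal and library cannot be told apart, no test between the groups was made, and every interval below covers counting error only.

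The beta cell reads blood glucose through its own metabolism. Glucose enters through the transporter that SLC2A2 encodes (GLUT2), is broken down, and yields ATP, which closes the KATP channel, so that the membrane depolarises, calcium enters and insulin granules are released. ABCC8 encodes the regulatory subunit of this channel, the receptor of sulfonylurea drugs, KCNJ11 encodes the pore, and SLC30A8 encodes the transporter that loads insulin granules with zinc, with which insulin is packed.

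In the pig genome (RefSeq, Sscrofa11.1), SLC2A2 (ENSSSCG00000020927) lies on chr13:109592595-109614105 and SLC30A8 (ENSSSCG00000006011) on chr4:21517009-21557747. The KATP subunit genes are neighbours on chromosome 2. ABCC8 (ENSSSCG00000013378) spans chr2:41666974-41754624, and KCNJ11 (ENSSSCG00000042162) spans chr2:41756637-41760340, with 2012 bases between them. ABCC8 covers 87651 bases and KCNJ11 only 3704 bases, and since levels here are not divided by length, each gene is compared with itself across classes and libraries.

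The WT matrix held 55784067 UMIs in 13619 barcodes, and the PIGinH11 matrix held 26228811 UMIs in 14964 barcodes. After filters and doublet removal, 11854 WT nuclei (median 3018.5 UMIs) and 13126 PIGinH11 nuclei (median 1167 UMIs) were retained, so the WT library was the deeper one in every class named below. Clusters were named from markers that include neither the 4 genes nor the hormones, and the ending "-like" marks every class name, because the class borders are those of the present clustering. The beta-like class held 130 WT and 133 PIGinH11 nuclei, with medians of 4369 and 2247 UMIs per nucleus. The alpha-like class held 73 and 97 nuclei, the delta-like class 27 and 63, and the gamma-like class 8 and 42. The acinar-like class held 8451 and 9070 nuclei, and the ductal-like class 2150 and 2194. Of the barcodes, 60 occurred in both libraries, and 1 beta-like nucleus of each library carried one of them.

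The hormones, which were not used for the naming, fitted the names of the 4 endocrine classes. This is not an independent check. Most naming markers come from the study's lists, chosen on these libraries, and the study annotated its endocrine clusters by these same hormones. INS stood at 8370 CPM (UMIs of a gene per 1000000 UMIs of the class) in WT and 5053 CPM in PIGinH11 beta-like nuclei, against 276 and 145 CPM in alpha-like nuclei. It was at 420 and 551 CPM in delta-like nuclei and at 497 and 1234 CPM in gamma-like nuclei, so it was not confined to the beta-like class. GCG was at 3907 and 3085 CPM in alpha-like nuclei, SST at 2111 and 2243 CPM in delta-like nuclei, and PPY at 6017 and 3461 CPM in gamma-like nuclei. INS UMIs were also spread through the exocrine nuclei, at 203 CPM in WT and 93.4 CPM in PIGinH11 acinar-like nuclei. They were found in other classes too, at 370 and 87.4 CPM in stellate-like and 312 and 133 CPM in Schwann-like nuclei. The WT alpha-like level of 276 CPM lay below both WT values. The part of free RNA in the INS levels outside the beta-like class was not tested.

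SLC2A2 was found in beta-like nuclei and close to nowhere else in the endocrine pancreas. Its level in beta-like nuclei was 1065 CPM in WT (95% Poisson interval 986 to 1149, 668 UMIs) and 766 CPM in PIGinH11 (683 to 857, 305 UMIs). Beta-like nuclei gave 98.2% of all SLC2A2 UMIs of endocrine-like nuclei in WT and 96.2% in PIGinH11, while they were 47.4% and 28.8% of these nuclei. The other endocrine classes held single UMIs or none. WT alpha-like nuclei held 2 UMIs (6.81 CPM, 0.825 to 24.6), delta-like nuclei 2 (24.7 CPM) and gamma-like nuclei 3 (78.5 CPM, 16.2 to 229). In PIGinH11, no UMI was found in alpha-like, delta-like or gamma-like nuclei, where a count of 0 (floor of 3 UMIs over the class) allows levels of up to 11.8, 20.1 and 36.3 CPM. SLC2A2 was therefore at least 65.2-fold higher in beta-like than in alpha-like nuclei of the PIGinH11 library, and at least 38.03-fold higher than in delta-like nuclei.

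ABCC8, the regulatory KATP subunit, was shared by all endocrine classes, and its level was higher in alpha-like than in beta-like nuclei of both libraries. In WT, it was at 2183 CPM in alpha-like nuclei (2017 to 2359), 1830 CPM in beta-like nuclei (1726 to 1939), 1222 CPM in delta-like nuclei (993 to 1488) and 759 CPM in gamma-like nuclei (508 to 1090). The level in beta-like nuclei was 0.838 times that in alpha-like nuclei (0.760 to 0.925). In PIGinH11, it was at 3634 CPM in alpha-like nuclei (3404 to 3876), 1977 CPM in beta-like nuclei (1842 to 2121), 1404 CPM in gamma-like nuclei (1160 to 1684) and 920 CPM in delta-like nuclei (773 to 1088). The ratio of beta-like to alpha-like nuclei was 0.544 (0.494 to 0.599) there. Every neighbouring pair in both orders differed by more than counting error, the delta-like and gamma-like classes stood in the opposite order in the 2 libraries, and the WT gamma-like class rested on 29 UMIs of 8 nuclei.

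KCNJ11, the pore of the channel, was sparse in every class and highest in beta-like nuclei. WT beta-like nuclei held 81 UMIs (129 CPM, 102 to 160), and PIGinH11 beta-like nuclei held 34 (85.4 CPM, 59.2 to 119). In alpha-like nuclei it was at 27.2 CPM (11.8 to 53.7) in WT and 58.8 CPM (32.9 to 97.0) in PIGinH11. The beta-like level was 4.74 times the alpha-like level in WT (2.29 to 11.3) and 1.45 times in PIGinH11 (0.770 to 2.87), so in the second library these classes could not be told apart at this depth. Delta-like nuclei held 2 and 8 UMIs and gamma-like nuclei 1 and 5, which put them at 24.7 to 60.5 CPM and within the intervals of the alpha-like class.

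The KATP subunit genes differed in how they were spread over the endocrine classes. Of the UMIs of both subunit genes together, KCNJ11 made up 6.59% in WT beta-like nuclei (5.27 to 8.13) and 1.23% in WT alpha-like nuclei (0.534 to 2.41). In PIGinH11, the shares were 4.14% (2.88 to 5.74) and 1.59% (0.894 to 2.61). In both libraries KCNJ11 thus held a larger share in beta-like than in alpha-like nuclei, with intervals that did not overlap. Gamma-like nuclei were at 3.33% in WT (0.0844 to 17.2) and 4.13% in PIGinH11 (1.36 to 9.38). Their intervals held the beta-like and the alpha-like share of each library. The interval of WT delta-like nuclei, at 1.98% (0.241 to 6.97), held the shares of both classes, and that of PIGinH11 delta-like nuclei, at 5.52% (2.41 to 10.6), held the beta-like share but not the alpha-like one. In WT beta-like nuclei all 51 nuclei with a KCNJ11 UMI also had an ABCC8 UMI, and so did all 27 in PIGinH11. Among nuclei without KCNJ11, ABCC8 was found in 97.5% and 82.1%. These counts are not corrected for depth. When 500 UMIs were drawn from each WT nucleus, ABCC8 was found in 8 of 12 nuclei with KCNJ11 (66.7%) and in 61.0% of those without. At 1000 UMIs, it was found in 9 of 10 (90.0%) and in 85.7%. Each thinning was a single random draw, and shares of 12 and 10 nuclei can vary from draw to draw.

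The KATP channel of smooth muscle is built from paralogs, with KCNJ8 as the pore and ABCC9 as the regulatory subunit. Neither gene had a UMI in the beta-like or alpha-like nuclei of either library, and the Poisson intervals for KCNJ8 ended at 5.88 and 9.27 CPM in beta-like nuclei. KCNJ8 was instead at 524 CPM (408 to 663) in WT and 253 CPM (177 to 352) in PIGinH11 mural-like nuclei, the class of vessel muscle cells and pericytes. It also reached 86.4 CPM (34.7 to 178) and 94.03 CPM (51.4 to 158) in delta-like nuclei, where KCNJ11 was at 24.7 and 53.7 CPM with overlapping intervals. ABCC9 was scarce in both classes. Mural-like nuclei held 1 ABCC9 UMI in WT (7.59 CPM) and 4 in PIGinH11 (29.0 CPM), and delta-like nuclei held 3 and 1.

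SLC30A8 was found in beta-like nuclei and, at a lower level, in alpha-like nuclei. In WT it was at 848 CPM in beta-like nuclei (777 to 923), 450 CPM in alpha-like nuclei (376 to 533), 183 CPM in gamma-like nuclei (73.6 to 377) and 123 CPM in delta-like nuclei (59.2 to 227). In PIGinH11 the levels were 736 CPM (654 to 825), 321 CPM (256 to 399), 72.6 CPM (26.7 to 158) and 101 CPM (56.4 to 166). The step from alpha-like to beta-like nuclei was 1.89-fold (1.56 to 2.30) in WT and 2.29-fold (1.79 to 2.96) in PIGinH11, and delta-like and gamma-like nuclei differed by less than counting error. All 6 SLC30A8 UMIs of PIGinH11 gamma-like nuclei came from 1 nucleus of 42.

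**Figure D1:**
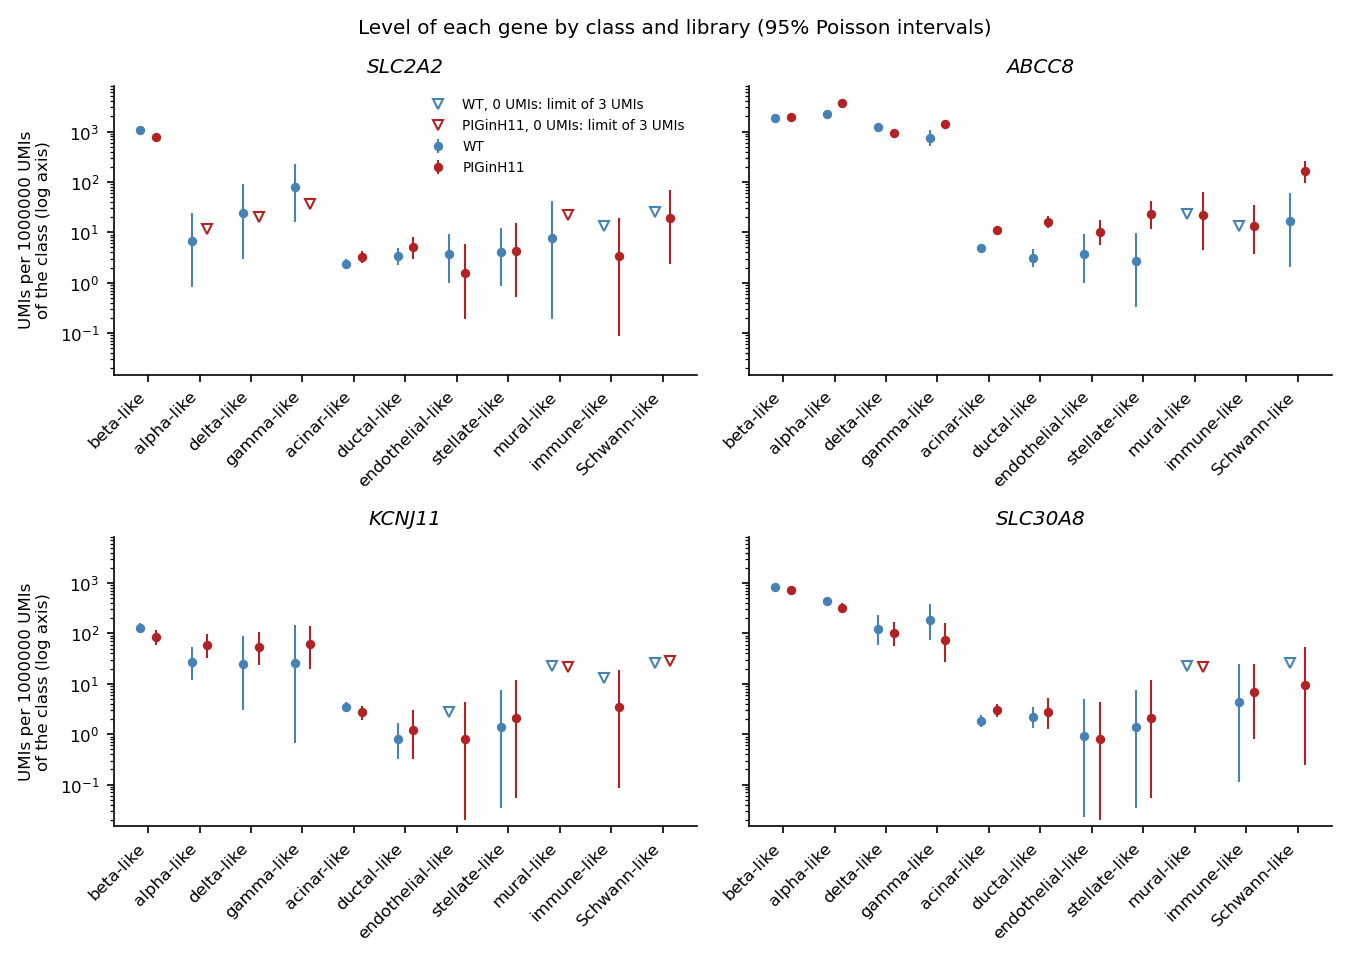
Level of SLC2A2, ABCC8, KCNJ11 and SLC30A8 in the WT (blue) and PIGinH11 (red) library for 11 classes of nuclei, as UMIs per 1000000 UMIs of the class on a log axis, with 95% Poisson intervals; open triangles mark classes with 0 UMIs and show the level that 3 UMIs would give. SLC2A2 stands out in beta-like nuclei, at 1065 and 766 CPM, ABCC8 is high in all 4 endocrine classes, and outside them only ABCC8 in PIGinH11 Schwann-like nuclei exceeds 100 CPM.

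A cluster of endocrine-like nuclei without a class name (32 WT and 75 PIGinH11 nuclei, medians 2525 and 1105 UMIs), with CHGB and the acinar factor gene RBPJL among its leading genes, held ABCC8 at 1403 CPM (1190 to 1644) and 912 CPM (761 to 1083). Its SLC2A2 was at 45.9 CPM (14.9 to 107) and 56.5 CPM (24.4 to 111), far under the beta-like class. SLC30A8 was at 174 CPM (105 to 272) and 99.0 CPM (54.1 to 166), and KCNJ11 had 2 and 5 UMIs. The other unnamed endocrine clusters held 31 and 21 PIGinH11 nuclei and 2 WT nuclei each, and 1 to 3 SLC2A2 UMIs in PIGinH11.

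Acinar-like and ductal-like nuclei held the 4 genes at 0.814 to 16.3 CPM. SLC2A2 was at 2.35 CPM (1.84 to 2.96) in WT and 3.28 CPM (2.44 to 4.31) in PIGinH11 acinar-like nuclei, and at 3.37 CPM (2.26 to 4.84) and 5.13 CPM (2.99 to 8.21) in ductal-like nuclei. SLC30A8 was at 1.82 and 2.96 CPM in acinar-like and 2.21 and 2.72 CPM in ductal-like nuclei. Both genes stood at like low levels in the exocrine classes of a library. INS was at 203 CPM in acinar-like and 162 CPM in ductal-like nuclei of WT, and at 93.4 and 100 CPM in PIGinH11. Beta-like over acinar-like levels were 453-fold (355 to 587) for SLC2A2, 371-fold (313 to 443) for ABCC8, 466-fold (353 to 627) for SLC30A8 and 36.5-fold (27.0 to 49.1) for KCNJ11 in WT. In PIGinH11 they were 234-fold (173 to 321), 182-fold (154 to 216), 249-fold (182 to 347) and 31.6-fold (19.5 to 50.9). All 4 genes were thus more than 2-fold higher in beta-like nuclei, as were 22.4% of 16985 genes in WT and 20.4% of 16691 genes in PIGinH11 with at least 20 UMIs over both classes. Against alpha-like nuclei, 2 of the 4 genes passed 2-fold in each library, namely SLC2A2 and KCNJ11 in WT and SLC2A2 and SLC30A8 in PIGinH11, beside 12.8% of 6543 genes and 14.8% of 5526 genes. Median-of-ratios scaling shifted the beta-like over acinar-like ratios of all genes by 0.17 in WT and 0.30 in PIGinH11 on the log2 scale, which is small beside these folds.

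Between the exocrine classes, KCNJ11 differed most in WT, where its level was higher in acinar-like nuclei. It was at 3.54 CPM (2.901 to 4.28, 107 UMIs) in WT acinar-like nuclei and at 0.814 CPM (0.327 to 1.68, 7 UMIs) in ductal-like nuclei, a ratio of 4.35 (2.04 to 11.08). In PIGinH11, the ratio was 2.24 (0.812 to 8.597), at 2.70 and 1.21 CPM. The same ratio in WT was 0.697 (0.446 to 1.11) for SLC2A2, 0.824 (0.481 to 1.47) for SLC30A8 and 1.57 (1.04 to 2.46) for ABCC8. In PIGinH11 it was 0.640 (0.363 to 1.18), 1.09 (0.527 to 2.53) and 0.667 (0.489 to 0.924), so there ABCC8 was the gene whose interval did not include 1, and its ratio lay on the other side of 1 than in WT. WT endothelial-like nuclei had no KCNJ11 UMI, so its acinar-like level was at least 1.29-fold that of endothelial-like nuclei (floor of 3 UMIs over the class). The acinar-like UMIs were scattered, with 104 of 8451 WT nuclei positive and at most 2 UMIs in 1 nucleus.

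ABCC8 differed between the libraries in the exocrine nuclei, and not only there. It was at 4.93 CPM (4.17 to 5.79) in WT and 10.9 CPM (9.30 to 12.6) in PIGinH11 acinar-like nuclei, and at 3.14 CPM (2.07 to 4.57) and 16.3 CPM (12.2 to 21.3) in ductal-like nuclei. PIGinH11 over WT, this gave log2 ratios of 1.14 (0.81 to 1.47) in acinar-like and 2.38 (1.68 to 3.099) in ductal-like nuclei. The hormones did not move as one in the same nuclei. INS had log2 ratios of -1.12 in acinar-like and -0.69 in ductal-like nuclei, and GCG had -0.96 and 0.08. PPY had 0.68 and 2.04, and SST had 0.85 and 0.79. The ductal-like intervals of GCG and SST included no difference. PCSK2, a prohormone convertase of all endocrine classes, had 0.82 and 1.03. SLC30A8 had 0.70 (0.10 to 1.29) in acinar-like and 0.30 (-1.03 to 1.51) in ductal-like nuclei. ABCC8 was also higher in PIGinH11 in the other named classes outside the endocrine ones, on few UMIs. Its log2 ratio was 3.098 (0.902 to 6.31) in stellate-like nuclei, from 2 and 11 UMIs. It was 3.26 (1.18 to 6.41) in Schwann-like nuclei, from 2 and 17 UMIs. In endothelial-like nuclei it was 1.51 (-0.19 to 3.58), from 4 and 13 UMIs. Mural-like nuclei held 0 and 3 UMIs, and immune-like nuclei 0 and 4. Outside the endocrine classes, 1.47% of WT and 1.96% of PIGinH11 nuclei had an ABCC8 UMI, and only 1 nucleus in each library had 5 or more. The WT one was acinar-like and held 7 UMIs. The PIGinH11 one was Schwann-like, held 11 of the 17 ABCC8 UMIs of its class (161 CPM, 94.05 to 259) and 5 PCSK2 UMIs. The part of free RNA and of doublets in these values was not tested.

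The comparison that the study was built for sets the beta-like nuclei of the PIGinH11 pig beside those of the WT pig. SLC2A2 was lower in the PIGinH11 library, KCNJ11 was lower with an interval that ended just below 0, and the intervals of ABCC8 and SLC30A8 included no difference. For SLC2A2, the log2 ratio (PIGinH11 over WT) came to -0.47 (-0.67 to -0.28), which is 1.39-fold lower. For KCNJ11 it was -0.60 (-1.22 to -0.0014), for SLC30A8 -0.20 (-0.41 to 0.0044) and for ABCC8 0.11 (-0.02 to 0.24). Median-of-ratios scaling lowered these ratios by 0.096 on the log2 scale. This is more than the distance from 0 of the upper limits of KCNJ11 and SLC30A8, so whether the SLC30A8 interval includes 0 depends on the scaling. None of the 4 genes reached a 2-fold difference, which 5.99% of the 6961 genes with at least 20 UMIs over both libraries reached downwards and 6.81% upwards, around a median log2 ratio of 0.03. INS itself had a log2 ratio of -0.73 (-0.80 to -0.65) in these nuclei. The sign of the ABCC8 ratio depended on the method, since the mean over nuclei gave -0.069, so no direction is given for this gene.

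Which nuclei were counted also mattered. Over all endocrine-like nuclei, unnamed clusters included, the log2 ratio was -1.001 for SLC2A2 (-1.20 to -0.81), -0.66 for SLC30A8 (-0.84 to -0.48), -0.34 for KCNJ11 (-0.81 to 0.12) and 0.13 for ABCC8 (0.05 to 0.22). SLC2A2 and SLC30A8 moved furthest from their beta-like values. As given above, beta-like nuclei were 47.4% of WT and 28.8% of PIGinH11 endocrine-like nuclei in these pieces of tissue.

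**Figure D2:**
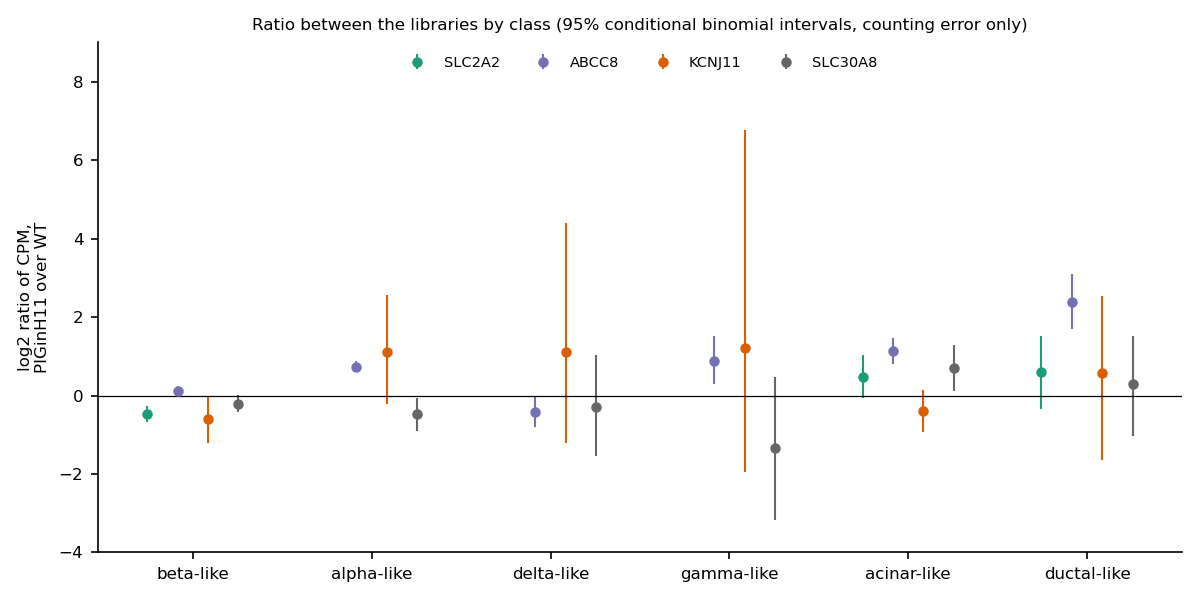
Log2 ratio of the level (CPM) in PIGinH11 over WT for the 4 genes in 6 classes, with 95% conditional binomial intervals; genes with 0 UMIs in a library are left out. In beta-like nuclei the points lie between -0.60 and 0.11, while ABCC8 lies above 0 in alpha-like, gamma-like, acinar-like and ductal-like nuclei and below 0 in delta-like nuclei.

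The level of SLC2A2 also varied with the depth of the nuclei. When the beta-like nuclei of a library were split at their median UMI number, SLC2A2 in WT was at 695 CPM (577 to 830) in the shallower part (median 2640 UMIs) and 1207 CPM (1108 to 1312) in the deeper part (median 7094 UMIs). In PIGinH11 it was at 542 CPM (397 to 723, median 1213 UMIs) and 827 CPM (729 to 934, median 4055 UMIs). SLC2A2 therefore took a larger share of the UMIs in the deeper nuclei of both pigs. The interval of the deeper PIGinH11 part overlapped that of the shallower WT part. It lay below that of the deeper WT part and below the level of all WT beta-like nuclei together (1065 CPM). These parts differ in depth, and the part of depth was not tested. SLC30A8 was also higher in the deeper part, at 729 and 894 CPM in WT, with overlapping intervals (608 to 868 and 809 to 985). In PIGinH11 it was at 448 and 814 CPM (317 to 615 and 717 to 921). ABCC8 went from 2182 to 1695 CPM in WT and from 1956 to 1983 CPM in PIGinH11. KCNJ11 was at 103 and 139 CPM in WT and at 82.5 and 86.2 CPM in PIGinH11, with overlapping intervals.

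Clustering at a higher resolution parted the beta-like nuclei into a deep and a shallow cluster, each with nuclei of both libraries. In the deep cluster (67 WT nuclei with a median of 6453 UMIs, 64 PIGinH11 nuclei with 3901), SLC2A2 was at 1269 CPM (1165 to 1380) in WT and 848 CPM (744 to 963) in PIGinH11. In the shallow cluster (59 nuclei with 2410 UMIs and 64 with 1174), it was at 586 CPM (474 to 716) and 575 CPM (432 to 750). The lower SLC2A2 level of the PIGinH11 library was thus seen in the deep cluster, and the values of the shallow cluster lay within counting error. ABCC8 was higher in PIGinH11 in the deep cluster (1617 and 2169 CPM, with intervals of 1499 to 1742 and 2000 to 2348) and lower in the shallow one (2318 and 1608 CPM, with 2090 to 2565 and 1362 to 1886). KCNJ11 was at 155 CPM (120 to 197) and 67.4 CPM (40.6 to 105) in the deep cluster, and at 86.3 CPM (47.2 to 145) and 138 CPM (73.7 to 237) in the shallow one. SLC30A8 was at 935 CPM (846 to 1031) and 792 CPM (691 to 903) in the deep cluster. In the shallow one, it was at 709 CPM (585 to 851) and 543 CPM (404 to 714). Its intervals overlapped between the libraries in both clusters. The part of depth in the difference between the libraries was not tested.

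SLC2A2 was not tied to the INS share of a nucleus in the same way in both libraries. When beta-like nuclei were split at the median share of INS in their UMIs, WT nuclei of the upper part (INS at 12212 CPM) held SLC2A2 at 1243 CPM (1132 to 1362) and those of the lower part (INS at 2931 CPM) at 813 CPM (707 to 930). In PIGinH11, the upper part (8228 CPM of INS) held it at 657 CPM (547 to 782) and the lower part (2100 CPM of INS) at 868 CPM (745 to 1005). These PIGinH11 intervals overlapped, while those of WT did not. The upper and lower parts differed in median depth in WT (4960 and 3216 UMIs) and hardly in PIGinH11 (2251 and 2213 UMIs). For ABCC8, KCNJ11 and SLC30A8 the intervals of the parts overlapped in WT, and in PIGinH11 ABCC8 was at 2190 CPM (1986 to 2410) in the upper and 1780 CPM (1602 to 1971) in the lower part.

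The share of beta-like nuclei in which a gene was found was lower in PIGinH11 for all 4 genes, and this gap narrowed at equal depth. SLC2A2 was found in 84.6% of WT nuclei (Clopper-Pearson 95% interval 77.2 to 90.3) and 57.1% of PIGinH11 nuclei (48.3 to 65.7). When 500 UMIs were drawn from each nucleus, for which every nucleus was deep enough, it was found in 33.1% (25.1 to 41.9) and 24.8% (17.7 to 33.0). SLC30A8 was found in 90.0% (83.5 to 94.6) and 60.2% (51.3 to 68.5), and in 29.2% and 22.6% at 500 UMIs. The thinned intervals overlapped for both genes. ABCC8 was found in 98.5% (94.6 to 99.8) and 85.7% (78.6 to 91.2), and in 61.5% and 54.9% at 500 UMIs. KCNJ11 was found in 39.2% (30.8 to 48.2) and 20.3% (13.8 to 28.1), and in 9.23% and 6.02% at 500 UMIs. Acinar-like nuclei, with medians of 2846 and 1202 UMIs, gave 0.828% and 0.551% for SLC2A2, 1.59% and 1.75% for ABCC8, 1.23% and 0.452% for KCNJ11 and 0.592% and 0.507% for SLC30A8, so all beta-like shares stood well above those of this class. At 1000 UMIs (129 and 109 nuclei, with 1 and 24 left out as too shallow), the shares were 55.0% and 44.0% for SLC2A2, 86.0% and 78.0% for ABCC8, 7.75% and 8.26% for KCNJ11, and 53.5% and 43.1% for SLC30A8. Each thinning was a single random draw.

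**Figure D3:**
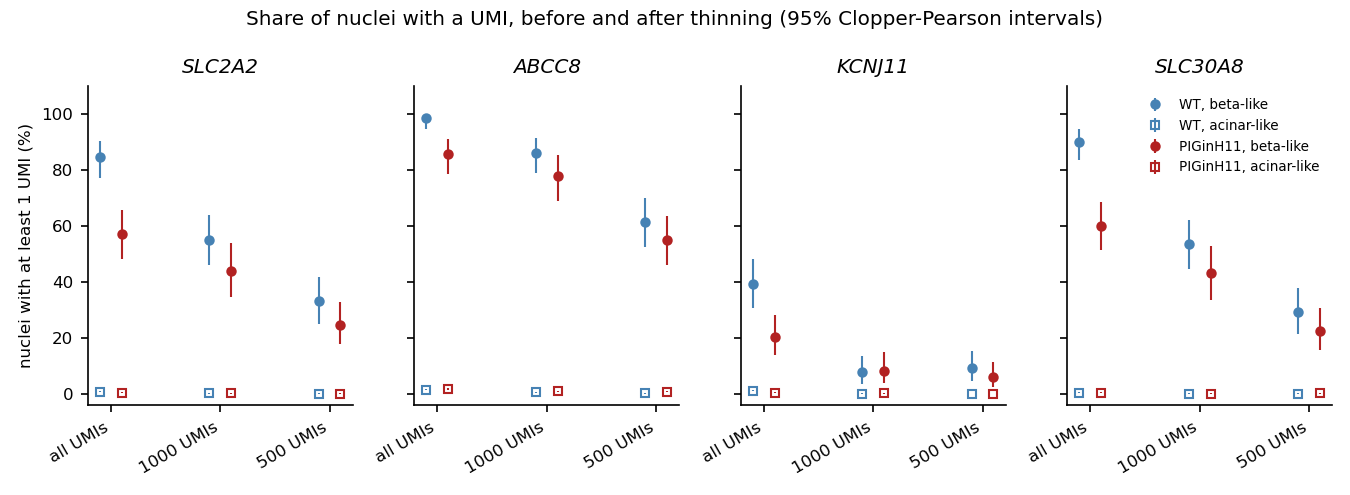
Share of nuclei with at least 1 UMI of each gene, in percent with 95% Clopper-Pearson intervals, for beta-like (filled circles) and acinar-like (open squares) nuclei of the WT (blue) and PIGinH11 (red) library, with all UMIs and with each nucleus thinned to 1000 or 500 UMIs. The gap between the libraries for SLC2A2, 84.6% against 57.1% with all UMIs, narrows to 33.1% against 24.8% at 500 UMIs, and acinar-like nuclei stay under 2% throughout.

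Per nucleus, SLC2A2 counts were spread unevenly. In WT, 20 of 130 beta-like nuclei had no SLC2A2 UMI, 52 had 5 or more, and the highest had 33. In PIGinH11, 57 of 133 had none, 18 had 5 or more, and the highest had 32. The 10 nuclei with most SLC2A2 UMIs gave 30.2% of the total in WT and 51.1% in PIGinH11. For ABCC8, these shares were 18.8% and 30.4%, with a median of 8 and 4 UMIs per nucleus. They were 40.7% and 50.0% for KCNJ11 and 27.1% and 34.5% for SLC30A8. The shares were thus higher in PIGinH11 for all 4 genes. They are not corrected for depth, and the part of depth in them was not tested. KCNJ11 was at 1 UMI in most of the nuclei that had it (34 of 51 in WT, 22 of 27 in PIGinH11). For SLC30A8, 43 and 22 nuclei had 5 or more UMIs.

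**Figure D4:**
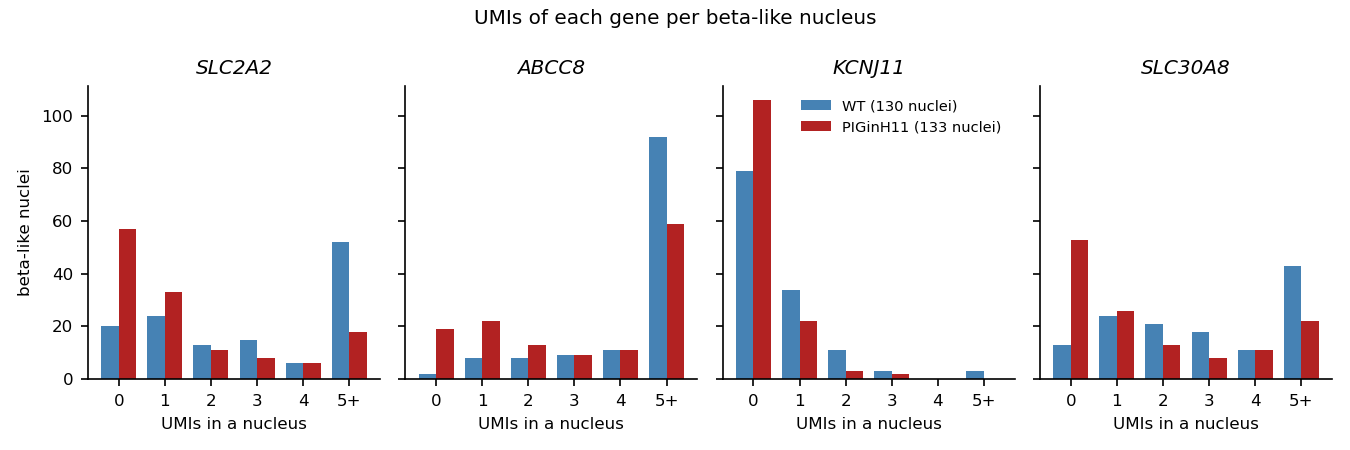
Number of beta-like nuclei with 0, 1, 2, 3, 4 and 5 or more UMIs of each gene in the WT (blue, 130 nuclei) and PIGinH11 (red, 133 nuclei) library, without correction for depth. For SLC2A2, 20 WT and 57 PIGinH11 nuclei had none, and for ABCC8 92 and 59 nuclei had 5 or more.

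The 4 genes were found together in a larger share of WT than of PIGinH11 nuclei when all UMIs were counted. All 4 were found in 43 of 130 WT nuclei (33.1%) and 14 of 133 PIGinH11 nuclei (10.5%), and 3 of them in 65 and 43 nuclei. No WT nucleus and 9 PIGinH11 nuclei had none of the 4. At 500 UMIs, no nucleus of either library had all 4, while 37 WT and 27 PIGinH11 nuclei had 2 and 22 and 30 had none. At 1000 UMIs, all 4 were found in 4 of 129 WT nuclei (3.101%) and 2 of 109 PIGinH11 nuclei (1.83%), too few to tell the libraries apart.

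In alpha-like nuclei, ABCC8 was the gene with the clearest difference. It was at 2183 CPM in WT and 3634 CPM in PIGinH11, a log2 ratio of 0.74 (0.59 to 0.88) or 1.66-fold higher. The share of nuclei with a UMI went against this level with all UMIs (97.3% and 87.6%) and with it at 500 UMIs (57.5% and 77.3%) and 1000 UMIs (84.7% and 98.5%). Both alpha-like clusters at the higher resolution showed the step, at 2139 and 3425 CPM in the shallow one (medians 2413 and 1201 UMIs) and at 2194 and 3775 CPM in the deep one. SLC30A8 had a log2 ratio of -0.48 (-0.90 to -0.08) in these nuclei, and the 8 and 15 KCNJ11 UMIs gave 1.11 (-0.22 to 2.56). Of the 3 genes with at least 20 UMIs over both libraries, 1 (KCNJ11) passed 2-fold upwards and none downwards, where 6.5% and 6.6% of 4861 genes did. In PIGinH11 alpha-like nuclei the summed level of the 7 stellate markers was 929 CPM against 419 CPM in WT, that of the 8 acinar markers 1917 against 1522 CPM, and none of these markers was at 0. Immune markers (1270 against 1083 CPM) and delta markers (2470 against 2146 CPM) were also higher in PIGinH11. So were the alpha markers of the class itself (10695 against 8982 CPM) and the endocrine markers (30886 against 29469 CPM). Ductal markers (1051 against 1104 CPM), beta markers (3952 against 4189 CPM) and gamma markers (2348 against 2956 CPM) were lower. The part of these transcripts in the ABCC8 difference was not tested.

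In the smaller endocrine classes, ABCC8 had a log2 ratio of -0.41 (-0.79 to -0.02) in delta-like and 0.89 (0.29 to 1.53) in gamma-like nuclei, the latter from 29 and 116 UMIs. The other 3 genes had intervals that included 0 or no UMI in 1 library there. Whether the ratio of ABCC8 differs between the classes was not tested, since each class and pig gave 1 value.

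Markers of other cell types were present in the beta-like nuclei of both libraries, below the level of their own class. The 8 acinar markers summed to 1012 CPM in WT and 920 CPM in PIGinH11 (18347 and 16704 CPM in acinar-like nuclei), and the 7 alpha markers to 792 and 932 CPM, with 2 and 3 of them at 0. The 7 delta markers summed to 1870 and 1364 CPM, with 1 at 0 in each library, against 7382 and 4883 CPM in delta-like nuclei. Stellate markers were higher in the PIGinH11 library. The 7 stellate markers summed to 54.2 CPM, with 2 at 0, and to 153 CPM, with none at 0, and the 9 endothelial markers to 51.0 and 87.9 CPM, with 2 at 0 in each library. The 10 beta markers summed to 24116 and 25350 CPM. The part of these transcripts in the values of the 4 genes was not tested.

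Downstream of SLC2A2, the genes that commit glucose to glycolysis were described in the same beta-like nuclei. Of 16 genes for glucose entry and phosphorylation, 6 had at least 20 UMIs, none passed 2-fold, and their median log2 ratio was 0.01 beside 0.03 for all genes. G6PC2, a glucose-6-phosphatase of islets, had a log2 ratio of -0.47 (-1.39 to 0.40) from 37 and 17 UMIs, PKM, a pyruvate kinase, -0.21 (-0.93 to 0.48), and PFKFB2, a regulator of phosphofructokinase, 0.13 (-0.23 to 0.49).

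Of 10 genes that couple glycolysis to mitochondria, 5 had enough UMIs and none passed 2-fold, with a median of -0.24. SLC25A1, the citrate carrier, was at 0.90 (-0.38 to 2.20), NNT, which forms NADPH, at -0.61 (-1.83 to 0.51), ME1, malic enzyme, at 0.32 (-0.76 to 1.37) and MPC2, a pyruvate carrier subunit, at -0.29 (-1.02 to 0.41). All 4 intervals included 0. SLC25A1 was at 17.5 and 32.7 CPM in beta-like nuclei, but at 61.7 and 94.2 CPM in acinar-like nuclei. NNT was at 38.3 and 25.1 CPM in beta-like and at 63.8 and 52.8 CPM in acinar-like nuclei. ME1 and MPC2 were lower in acinar-like than in beta-like nuclei of both libraries.

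Past the KATP channel, 6 of 7 genes for depolarisation and calcium entry had enough UMIs, none passed 2-fold, and the median was 0.23. The calcium channel genes did not move as a group. CACNA1B was at 652 CPM in WT and 975 CPM in PIGinH11 (0.58, 0.38 to 0.78), and CACNA1D, an L-type channel gene, was at 2026 and 1593 CPM (-0.35, -0.49 to -0.21). CACNA1C was at 0.52 (-0.06 to 1.10) and the potassium channel gene KCNQ1 at 0.41 (-0.12 to 0.93). KCNQ1 was at 112 and 148 CPM in beta-like nuclei, but at 562 and 572 CPM in acinar-like nuclei. CACNA1C was at only 0.794 and 2.51 CPM in acinar-like nuclei.

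Among the other zinc transporters, 9 of 23 genes had enough UMIs, none passed 2-fold, and the median was 0.15. SLC39A11 was at 209 and 364 CPM (0.80, 0.45 to 1.16), but its level in acinar-like nuclei was 938 and 896 CPM. SLC39A10 was at -0.93 (-2.55 to 0.47), SLC30A9 at 0.66 (-0.31 to 1.63) and SLC30A6 at -0.61 (-1.83 to 0.51).

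Of 15 islet transcription factors, 12 had enough UMIs, 1 passed 2-fold upwards and none downwards, beside 6.81% and 5.99% of all genes, and the median was -0.04. NKX2-2 was the one past 2-fold, with 26 and 34 UMIs (1.04, 0.26 to 1.84). PDX1, a regulator of INS and SLC2A2, was at 57.4 and 103 CPM (0.84, 0.16 to 1.53), NEUROD1 at 0.66 (-0.48 to 1.79), and RFX6 at 464 and 342 CPM (-0.44, -0.75 to -0.14). MAFA, which marks mature beta cells, had 0 and 1 UMIs in beta-like nuclei.

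**Figure D5:**
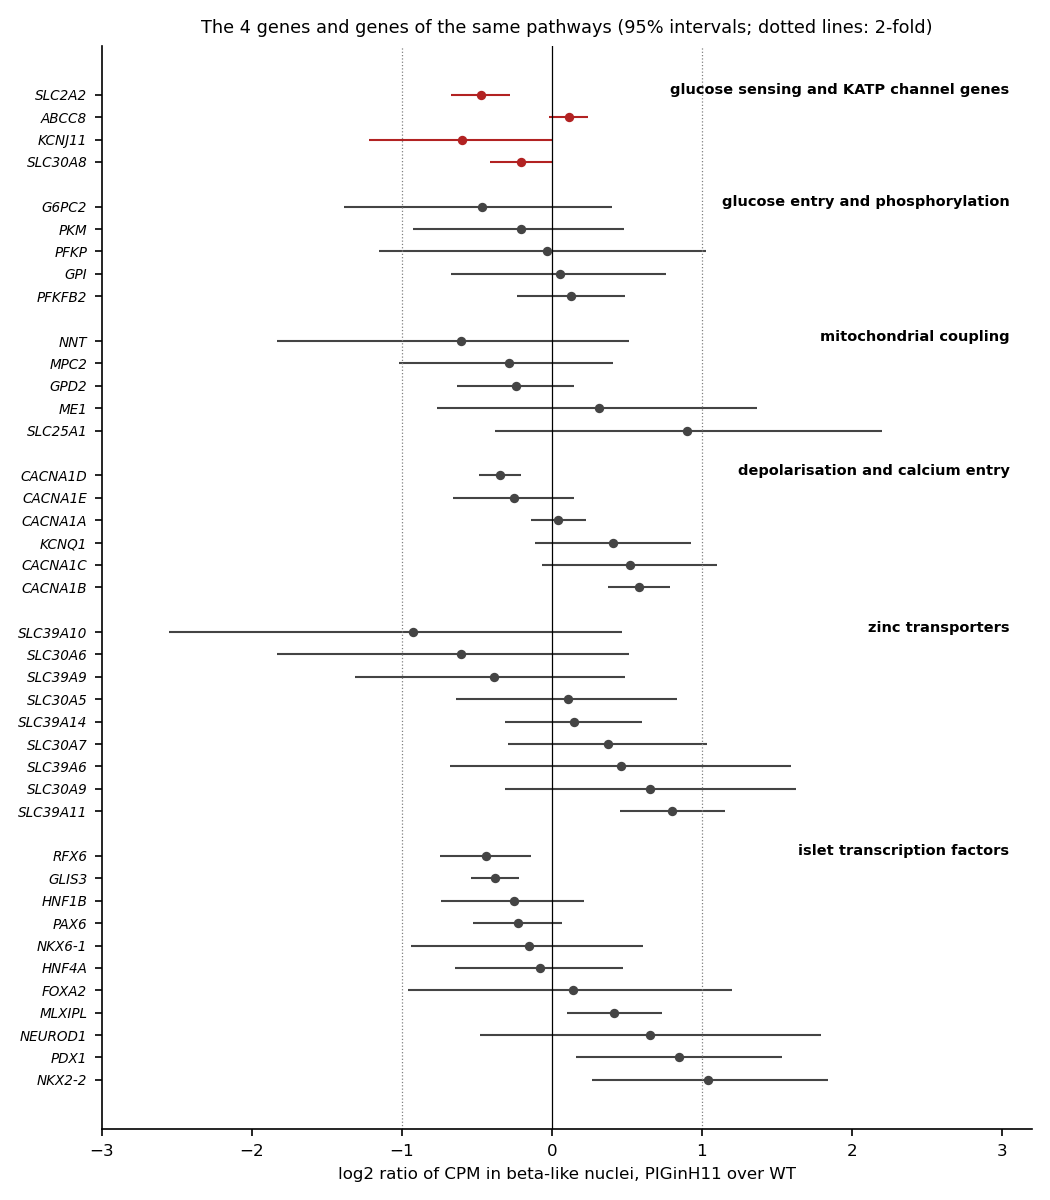
Log2 ratio of the level (CPM) in PIGinH11 over WT in beta-like nuclei with 95% conditional binomial intervals, for the 4 genes (red) and the genes of 5 lists with at least 20 UMIs over both libraries (grey); dotted lines mark a 2-fold difference. Of the genes that passed this minimum, 2 are not shown. SLC2A2 at -0.47 and CACNA1D at -0.35 lie below 0, CACNA1B at 0.58 lies above it, and NKX2-2 at 1.04 is the one gene shown past 2-fold.

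Across 11 classes and both libraries (22 points of log2(CPM + 5)), ABCC8, KCNJ11 and SLC30A8 were much alike, with Pearson correlations of 0.91 to 0.95, while SLC2A2 correlated with them at 0.48 to 0.65. The points share libraries, depth and the division into endocrine and other classes, and are a description only. Among 3977 genes with at least 100 UMIs in endocrine-like nuclei, the patterns most like ABCC8 were those of NOL4, CACNA1B, KCNB2, PAX6 and TMEM196 (0.98 each), all found across the endocrine classes. Those most like SLC2A2 were ESM1, PLPP4, SLC24A2, SYNDIG1L and PDCL2, at 0.80 to 0.83. For KCNJ11 they were MYT1L, SNAP25, MDGA1, TNRC6A and RAB3B (0.95 to 0.96), and for SLC30A8 SNTG1, PCSK2, PAX6, CERKL and SNAP25 (0.96 to 0.97). NOL4, KCNB2 and PCSK2 were among the markers that named the endocrine-like class.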

How the data were processed

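Single-nucleus RNA sequencing of 1 WT and 1 PIGinH11 pancreas was used. After alignment to Sscrofa11.1, the authors deposited raw UMI counts per gene and barcode. The labels name Cell Ranger v3.1.0 and Seurat v3.1.1, while the file headers give Cell Ranger v5.0.0, and the study's mapping summary gives the transcriptome a larger share of reads than exons, so the counts include intronic reads. The deposited matrices were not yet filtered by the authors' limits. A symbol was missing for 15410 of 31908 genes, and a table of gene names supplied 841 of them. No column of other samples was present (0). The total count per library and the median per nucleus are given below with each result they limit.

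A barcode was kept at 270 to 3700 genes, under 13000 UMIs and under 10% of UMIs from mitochondria. The UMI limit in the methods reads 1300, and this value was run as an alternative. Doublets were scored with Scrublet (scanpy v1.11.5), and the highest 0.8% per 1000 barcodes were removed (1484 WT and 1791 PIGinH11 barcodes). Nuclei were clustered on 2000 variable genes without the 4 genes, the pathway lists and the hormones, with 30 principal components, Harmony correction and Louvain at resolution 1 (igraph v0.11.9, seed 0), and endocrine-like nuclei were clustered again. Clusters were named when 3 or more markers reached 5% of their nuclei and a log2 fold of 1 over the rest. Most markers come from the study's lists, which it chose on these libraries. CADPS, LAMA2, S100B and GFRA3 were not used, and cluster borders may differ from those of the study.

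For each class and library, the UMIs of a gene were summed and scaled to 1000000 UMIs (CPM). Intervals are exact at 95% (Poisson for CPM, Clopper-Pearson for shares, conditional binomial for ratios) and cover counting error only. A count of 0 was given a floor of 3 UMIs, and was taken as 0.5 UMIs only in the shares of genes past 2-fold. With 1 library per group, no test, p-value or number of changed genes is given. The ratios between the libraries and their intervals were tested on simulated Poisson UMI sums of beta-like nuclei. Such sums do not carry the uneven spread of UMIs over nuclei. Filters, doublet removal, clustering and naming were not tested in this way. Alternatives for the nuclei were the UMI limit of 1300, at least 500 genes, doublets kept or removed at a doubled rate, clustering with another seed, with all genes, without Harmony or at resolution 2, beta-like nuclei assigned by hormone, and all endocrine-like nuclei. Alternatives for the values were median-of-ratios scaling, totals that leave out enzyme, mitochondrial and ribosomal protein genes, thinning to 500 or 1000 UMIs, the mean over nuclei, subtraction of free RNA, and a minimum of 50 UMIs.

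The 4 genes and the 6 pathway lists (73 genes) were chosen with earlier results of these data known, and the study named the 4 genes from these libraries. By rule, at most the 4 genes of a list with the largest absolute log2 ratio in beta-like nuclei, and the 5 genes most like each of the 4, are named. HK1, MAFA, PCSK2, USH1C and PIK3C2A are named beyond this rule where the text gives them for their role or count, chosen after their values were seen. The values of 2 list genes are not reported here, though the counts and medians of their lists include them.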

Additional observations from a re-analysis of the deposited data

How the results depend on the processing

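With 1 library per group, the limits are the animal, the piece of tissue and a WT library that was deeper in every class, so that no ratio between the pigs has a replicate. KCNJ11 rests on 81 and 34 beta-like UMIs. No paired analysis was possible because each group has 1 library and the labels give no replicate numbers.

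Of 60 alternative values of the log2 ratios of PIGinH11 over WT in beta-like nuclei, 51 lay within the main interval and none of the called ratios changed sign. SLC2A2 stayed below 0 under all 15 settings (-1.001 to -0.12), as did SLC30A8 (-1.06 to -0.18) and KCNJ11 (-2.76 to -0.34), while ABCC8 was below 0 under 3 of 15. The settings include the count over all endocrine-like nuclei, which is not a beta-like ratio. It gave the ends of -1.001 for SLC2A2 and -0.34 for KCNJ11. Of 103 values of the beta-like over acinar-like ratios, 81 lay within the main interval, and all stayed above 0. The UMI limit of 1300 left 5 WT and 39 PIGinH11 beta-like nuclei. It gave ratios between the libraries of -0.12 for SLC2A2, -0.54 for ABCC8, -2.76 for KCNJ11 and -1.06 for SLC30A8. Its beta-like over acinar-like ratios were 6.54 and 6.81 for SLC2A2, 7.50 and 5.95 for ABCC8 and 7.003 and 5.76 for SLC30A8 in WT and PIGinH11, and its shares of nuclei were 38.5% for SLC2A2, 64.1% for ABCC8, 5.13% for KCNJ11 and 30.8% for SLC30A8 in PIGinH11 and 100% for ABCC8 and 80.0% for SLC30A8 in WT. KCNJ11 had no such class ratio in WT, since no acinar-like UMI was left.

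All endocrine-like nuclei together gave -1.001 for SLC2A2 and -0.66 for SLC30A8. The mean over nuclei gave -0.069 for ABCC8 and -0.42 for SLC30A8 between the libraries, and class ratios of 7.94 and 7.12 for SLC2A2, 7.81 and 6.66 for ABCC8 and 8.07 and 6.90 for SLC30A8. Thinning to 500 UMIs gave -0.23 for SLC2A2 between the libraries, class ratios of 8.19 and 7.25 for SLC2A2, 8.06 and 6.73 for ABCC8, 6.44 and 6.28 for KCNJ11 and 7.36 and 6.79 for SLC30A8, and shares of 33.1% and 24.8%, 61.5% and 54.9%, 9.23% and 6.02%, and 29.2% and 22.6% in the same order. At 1000 UMIs the shares were 55.0% and 44.0%, 86.0% and 78.0%, 7.75% and 8.26%, and 53.5% and 43.1%. In PIGinH11, the ABCC8 class ratio was 7.79 with a gene minimum of 500 and 7.21 with median-of-ratios scaling, and its share of nuclei was 77.9% with another seed. Assignment by hormone gave WT shares of 75.5% for SLC2A2 and 81.3% for SLC30A8. With a minimum of 50 UMIs, 3.35% of genes passed 2-fold downwards and 3.87% upwards in beta-like nuclei. Thinning leaves each nucleus with the same, smaller number of UMIs, and the limit of 1300 leaves fewer nuclei. The cause of these shifts was not tested.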

Other observations

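Hexokinase genes of other cell types were near 0 in beta-like nuclei. HK1, which was named after its values were seen, had 1 UMI in the beta-like nuclei of each library (1.59 and 2.51 CPM), against 155 CPM (147 to 164) in WT and 163 CPM (149 to 177) in PIGinH11 ductal-like nuclei and 143 and 159 CPM in endothelial-like nuclei.

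The next gene on the other side of ABCC8 on chromosome 2 is USH1C, a scaffold protein gene, with 20196 bases between them. It was named after its values were seen. USH1C was at 590 and 513 CPM in beta-like nuclei, 388 and 423 CPM in alpha-like nuclei, and 53.5 and 20.8 CPM in ductal-like nuclei. Acinar-like nuclei held it at 2.32 and 4.05 CPM. PIK3C2A, a kinase gene beyond KCNJ11, was at 343 and 425 CPM in beta-like and 439 and 659 CPM in acinar-like nuclei.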
